A study of Mus musculus with 7 samples.

Results

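The core of the Hippo pathway was followed in whole mouse embryos at E11.5 through 10 genes, taken from the deposited FPKM table by their symbols out of 25461 genes in all. They are the kinase genes Stk3, Stk4, Lats1 and Lats2, the adaptor genes Sav1, Mob1a and Mob1b, the upstream scaffold gene Nf2, and the coactivator genes Yap1 and Wwtr1, which encode YAP and TAZ. All 10 were found, and all passed the filter on low values, which asked for an average of 1 FPKM or more. The embryos were of the B6C3F1 strain and comprised 3 SLMAP3 knockouts (KO) and 4 wild types (WT). The deletion removes an exon of Slmap in every cell, with the cre transgene bred out of the animals, and is reported to take away the SLMAP3 isoform and not the shorter ones. Tails had been cut off for genotyping, total RNA of the rest of each embryo was made into 1 library, and the FPKM values are per gene, so isoforms were not told apart.

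In the Hippo pathway the MST kinases, encoded by Stk3 and Stk4 and held by Salvador (Sav1), phosphorylate the LATS kinases and their MOB1 partners, and LATS then phosphorylates YAP and TAZ, which keeps these out of the nucleus. Merlin, the product of Nf2, brings LATS to the membrane. Free YAP and TAZ enter the nucleus and drive growth genes through the TEAD factors. SLMAP is known to bind the MST kinases and to bring them to STRIPAK, a phosphatase complex that switches them off. The pathway is run by phosphorylation, which transcript levels do not measure. The comparison of KO and WT embryos asks whether the transcripts of this core differ when SLMAP3 is absent.

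None of the 10 genes differed between KO and WT embryos beyond the spread between embryos. By limma on log2(FPKM + 1) and with p-values adjusted by Benjamini and Hochberg's method across the 16095 genes tested, 0 of 10 had an adjusted p under 0.05, against 0.0373% of all genes tested (6 genes), and 0 of 10 had an unadjusted p under 0.05, against 11.5% of all genes. The lowest unadjusted p among the 10 was 0.183 (limma, fitted across all genes), for Wwtr1. The FPKM values of the KO and WT embryos overlapped for all 10, while they were apart for 11.6% of all genes tested. The median log2 fold change of the 10 genes, KO minus WT, was 0.021, beside 0.011 over all genes tested, with 7 values above 0 and 3 below. Within a genotype the 10 genes had a median within-group SD of 0.064 on the log2 scale. It was 0.12 over all genes tested, which were not matched for level. The lists of other pathway genes followed below had medians from 0.0807 (YAP/TAZ retention and turnover) to 0.137 (YAP and TAZ targets). These p-values measure the spread between single embryos of unstated litters.

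The targeted gene, Slmap (chr14:26413168-26534931 in GRCm38), was lower in the KO embryos. Its level was 19.6, 16.0 and 16.6 FPKM in the KO embryos KOAC8-6, KOAC10-5 and KOAC10-8, and 31.2, 23.9, 29.1 and 22.8 FPKM in the WT embryos KOAC8-1, KOAC10-7, KOAC9-1 and KOAC10-2. The groups did not overlap, and the log2 fold change was -0.59 (SE 0.13), with an adjusted p of 0.278 by limma. In the rest of the text values are given in this order of embryos, KO first.

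The relative depth, read from the steps between low FPKM values, was 1.13, 1.06 and 1.08 in KO and 0.89, 0.82, 1.21 and 0.81 in WT embryos. All WT embryos but KOAC9-1 thus lay below the KO embryos, and the part of depth in the values below was not tested. The FPKM sums ran from 770063 to 861448. The number of reads behind a value is not known, so no counting interval is given. No 2 embryos held identical values. None of the cell type markers examined had an adjusted p under 0.05. The counts at an unadjusted p under 0.05, which 11.5% of all genes tested had, were as follows. Of 9 skeletal muscle markers tested, all were below 0 in log2 fold change and 8 had an unadjusted p under 0.05, with summed levels of 142 to 193 FPKM in KO and 265 to 369 FPKM in WT embryos. Of 7 neural progenitor markers, 6 were above 0 with an unadjusted p under 0.05 (summed 765 to 881 against 684 to 781 FPKM). Of 6 mesenchyme markers 3 were below 0 with such a p, Col1a1 (log2 fold change -0.59), Col1a2 (-0.36) and Pdgfra (-0.29). Prrx1 was at -0.06, Pdgfrb at 0.0057 and Twist1 at 0.05. The sums, 389 to 490 against 493 to 552 FPKM, thus do not stand for every mesenchyme marker. Of 5 endothelial markers 2 were above 0 with such a p (summed 76.4 to 82.0 against 71.2 to 76.1 FPKM). Among neuron and liver markers 0 of 7 and 0 of 6 had such a p. The liver sums ran from 9.92 to 473 FPKM in KO and from 4.22 to 710 FPKM in WT embryos. Embryos of both genotypes thus differed widely in liver sums, and the lack of such a p does not mean equal liver content. Of the 3 primitive erythroid globins 1 had such a p, Hbb-y, which averaged 8865 FPKM over the KO and 13156 FPKM over the WT embryos (log2 fold change -0.57). Hbb-bh1 went the other way (0.51) and Hba-x was at -0.12, so that the sums, 11021 to 15160 FPKM in KO and 15051 to 20390 FPKM in WT embryos, follow Hbb-y. No marker was listed at 0 in any embryo. In whole embryos fewer cells of a type and less RNA per cell cannot be told apart, and the part of these marker values in the values below was not tested.

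FPKM is scaled to transcript length, so levels can be set side by side between genes. Yap1 had the highest level of the 10, with a mean of 61.7 FPKM over the 7 embryos, and Mob1b the lowest with 9.1 FPKM. Between them came Nf2 (45.7), Sav1 (34.0), Mob1a (31.2), Wwtr1 (18.0), Stk4 (17.7), Stk3 (14.1), Lats1 (12.5) and Lats2 (9.43 FPKM). The embryos' ranges did not meet between Yap1 and Nf2, Nf2 and Sav1, Mob1a and Wwtr1, Stk4 and Stk3, or Lats1 and Lats2. They overlapped between Wwtr1 and Stk4, where Wwtr1 was the higher in 4 of 7 embryos, between Lats2 and Mob1b (5 of 7) and between Stk3 and Lats1 (6 of 7). The ranges of Sav1 and Mob1a overlapped too, but Sav1 was above Mob1a in 7 of 7 embryos. The adaptors Sav1 and Mob1a were thus listed above all 4 kinases. The place of Lats2, also against Lats1, is uncertain, since it shares sequence with a gene that has no value here (below).

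**Figure D1:**
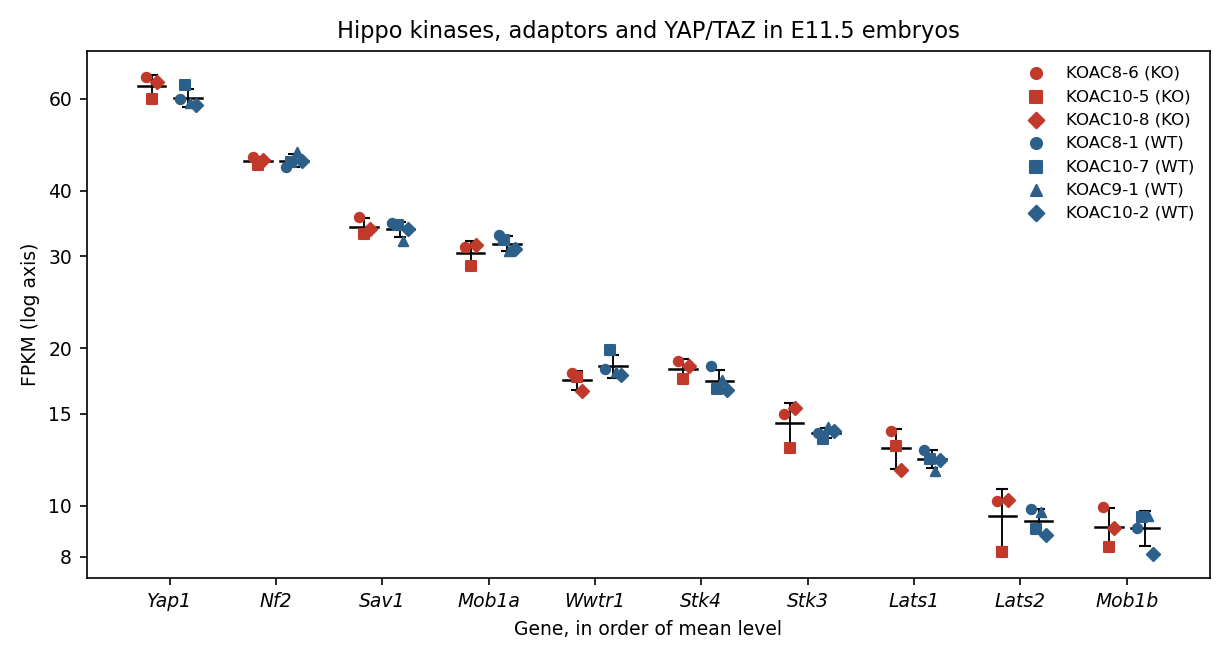
FPKM (log axis) of the 10 genes in each embryo, in order of the mean level, with KO embryos in red and WT embryos in blue; horizontal bars are group means and error bars the SD (3 KO, 4 WT). The red and blue points overlap for every gene, and the genes run from about 61.7 FPKM for Yap1 to 9.1 FPKM for Mob1b.

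Among the kinases, Stk3 (MST2, chr15:34875496-35178921 in GRCm38) was at 15, 12.9 and 15.4 FPKM in KO and 13.8, 13.4, 14.2 and 13.9 FPKM in WT embryos. The KO embryos held both the lowest and the 2 highest values. The log2 fold change was 0.054 (SE 0.069, 95% interval -0.11 to 0.22, adjusted p = 0.785 by limma). Its paralog Stk4 (MST1, chr2:164070322-164155524) was at 19.0, 17.5 and 18.5 FPKM in KO and 18.5, 16.7, 17.4 and 16.7 FPKM in WT embryos (log2 fold change 0.074, SE 0.058, interval -0.062 to 0.21, adjusted p = 0.638 by limma). The WT embryo KOAC8-1 lay among the KO values and the other 3 WT embryos below them. For both MST kinases the upper bound of the interval was a KO level at 116% of WT, in FPKM + 1. The lower bound was 92.7% of WT for Stk3 and 95.8% for Stk4 on the same scale.

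Lats1 (chr10:7681214-7716460), which encodes one of the kinases that phosphorylate YAP, was at 13.9, 13 and 11.7 FPKM in KO and 12.8, 12.3, 11.6 and 12.3 FPKM in WT embryos. Here KOAC8-6 was highest and the WT embryo KOAC9-1 lowest, and the log2 fold change was 0.067 (SE 0.070, interval -0.098 to 0.23, adjusted p = 0.732 by limma). Lats2 was the most variable of the 10 genes, with a coefficient of variation of 8.45% over the embryos. It was at 10.21, 8.16 and 10.28 FPKM in KO and 9.85, 9.02, 9.73 and 8.79 FPKM in WT embryos, so that the KO group held both extremes. Its log2 fold change was 0.023 (SE 0.092, interval -0.19 to 0.24, adjusted p = 0.941 by limma).

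The 3 lowest Lats2 values were those of KOAC10-5, KOAC10-2 and KOAC10-7, which are also the embryos with the lowest Afp, a transcript of the fetal liver and yolk sac (5.18, 2.49 and 1.30 FPKM, against 255 to 376 FPKM in the other 4). All 3 carry the same series number, KOAC10, whose meaning the labels do not give, but KOAC10-8 carries it too and had 10.28 FPKM of Lats2 and 308 FPKM of Afp. With Afp as a covariate the log2 fold change of Lats2 was -0.017 in place of 0.023. The part of liver content in the Lats2 values was not tested. Lats2 is on the same chromosome as Slmap, 31.2 Mb away (chr14:57689662-57758388). In addition 41.2% of its 50-base stretches, and 42.4% of its exonic bases, are shared with the annotated gene Gm49361 on the same strand, which has no value here, so reads of the 2 could have been divided between them.

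**Figure D2:**
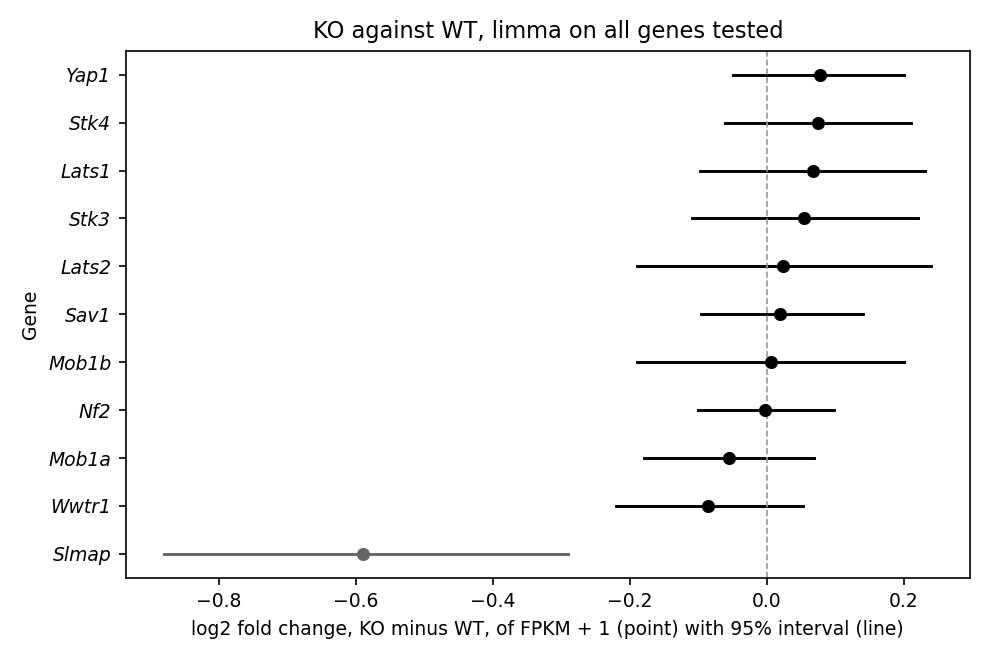
Log2 fold change, KO minus WT, (points) with 95% intervals (lines) from limma for the 10 genes and for Slmap, in grey. All 10 intervals include 0, from -0.22 at the lower end of Wwtr1 to 0.24 at the upper end of Lats2, while the interval of Slmap runs from -0.88 to -0.29.

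Sav1, Mob1a and Nf2 varied less over the embryos (coefficients of variation of 3.32%, 4.25% and 2.23%) than each of the 4 kinases (5.14% to 8.45%), whereas the third adaptor, Mob1b, varied by 7.43%. Sav1 (chr12:69965012-69987002), which holds the MST kinases, was at 35.7, 33.1 and 33.8 FPKM in KO and 34.7, 34.4, 32.2 and 33.8 FPKM in WT embryos (log2 fold change 0.019, SE 0.049, interval -0.097 to 0.14, adjusted p = 0.911 by limma). Its exons overlap those of Atl1, an ER-shaping GTPase gene on the opposite strand, over 25.4% of their bases, and the library kit does not mark strand. Atl1, which was named after this overlap was found, was at 15.8 to 17.4 FPKM with a log2 fold change of -0.0047.

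Mob1a (chr6:83326016-83343776), one of the 2 genes for the LATS partner MOB1, was at 31.3, 28.7 and 31.5 FPKM in KO and 33.0, 32.2, 30.7 and 31.0 FPKM in WT embryos. The lowest value was that of the KO embryo KOAC10-5 and the 2 highest were WT, with a log2 fold change of -0.056 (SE 0.053, interval -0.18 to 0.069, adjusted p = 0.703 by limma). Mob1b (chr5:88720855-88764220) was at 9.96, 8.35 and 9.07 FPKM in KO and 9.08, 9.54, 9.59 and 8.1 FPKM in WT embryos. Its highest value was KO and its lowest WT, and the log2 fold change was 0.0065 (SE 0.084, interval -0.19 to 0.20, adjusted p = 0.982 by limma).

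Nf2 (chr11:4765845-4849536), which encodes Merlin, varied least of the 10 genes, with a coefficient of variation of 2.23%. It was at 46.4, 44.8 and 45.8 FPKM in KO and 44.5, 45.4, 47.5 and 45.6 FPKM in WT embryos, and both groups had a mean of 45.7 FPKM. Its within-group SD ranked at the percentile 1.23 of all genes tested. The log2 fold change was -0.0027 (SE 0.043, interval -0.10 to 0.098, adjusted p = 0.985 by limma). In FPKM + 1, a KO level below 93.1% or above 107% of WT thus lay outside the interval.

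The log2 fold changes of the coactivators lay on opposite sides of 0. Yap1 (chr9:7931999-8004596) was at 66, 60 and 64.6 FPKM in KO and 59.9, 63.7, 58.8 and 58.5 FPKM in WT embryos. The WT embryo KOAC10-7 stood among the KO values and the other 3 WT embryos below all of them. The log2 fold change was 0.077 (SE 0.054, interval -0.049 to 0.20, adjusted p = 0.605 by limma). Wwtr1 (chr3:57455649-57575910) was at 17.9, 17.6 and 16.5 FPKM in KO and 18.3, 19.9, 18.0 and 17.8 FPKM in WT embryos. The same WT embryo, KOAC10-7, had the highest value, and the WT embryo KOAC10-2 fell just inside the KO values. The log2 fold change of Wwtr1 was -0.086 (SE 0.059, interval -0.22 to 0.052, adjusted p = 0.595 by limma).

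The share of each gene in its paralog pair is a ratio within the embryo, on which the scaling of the library has no effect. Yap1 made up 78.7%, 77.3% and 79.6% of the summed FPKM of Yap1 and Wwtr1 in KO embryos and 76.6%, 76.2%, 76.5% and 76.7% in WT embryos. The groups did not overlap: the mean was 78.5% ± 1.15 (SD, n = 3) in KO and 76.5% ± 0.219 (SD, n = 4) in WT embryos, a difference of 2.03 points, and the shares of the KO embryos spread more widely. Since the groups were apart, the order could not differ within a series number. The shares were 78.7% KO and 76.6% WT for KOAC8. For KOAC10 they were 77.3% and 79.6% KO, and 76.2% and 76.7% WT. Leaving out any 1 embryo gave differences of 1.48 to 2.63 points, whose sign was fixed in the same way. The share was compared for 4 pairs without a test, and how often shares of other gene pairs are apart between these groups was not computed. The summed levels of Yap1 and Wwtr1 overlapped between the groups (80.9 ± 3.16 FPKM in KO, SD, n = 3, and 78.7 ± 3.33 FPKM in WT embryos, SD, n = 4).

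The other pairs overlapped. Stk3 made up 44.0% ± 1.46 (SD, n = 3) of the MST pair in KO and 44.4% ± 1.2 (SD, n = 4) in WT embryos, so that Stk4 had the larger share in every embryo. Lats1 made up 57.5% ± 4.12 (SD, n = 3) of the LATS pair in KO and 56.7% ± 1.68 (SD, n = 4) in WT embryos, with the same limit on the level of Lats2. The KO embryos KOAC10-5 and KOAC10-8 had its highest and lowest share, 61.5% and 53.3%. Mob1a made up 77.0% ± 1.01 (SD, n = 3) of the MOB1 pair in KO and 77.8% ± 1.36 (SD, n = 4) in WT embryos. Apart from Lats2, no gene of the 10 shared more than 0.763% of its 50-base stretches with transcripts of another gene in the same orientation. On the opposite strand, which the kit does not tell apart, the exons of Sav1 overlap those of Atl1 (above) and those of Yap1 overlap Gm20416 over 1.25% of their bases.

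**Figure D3:**
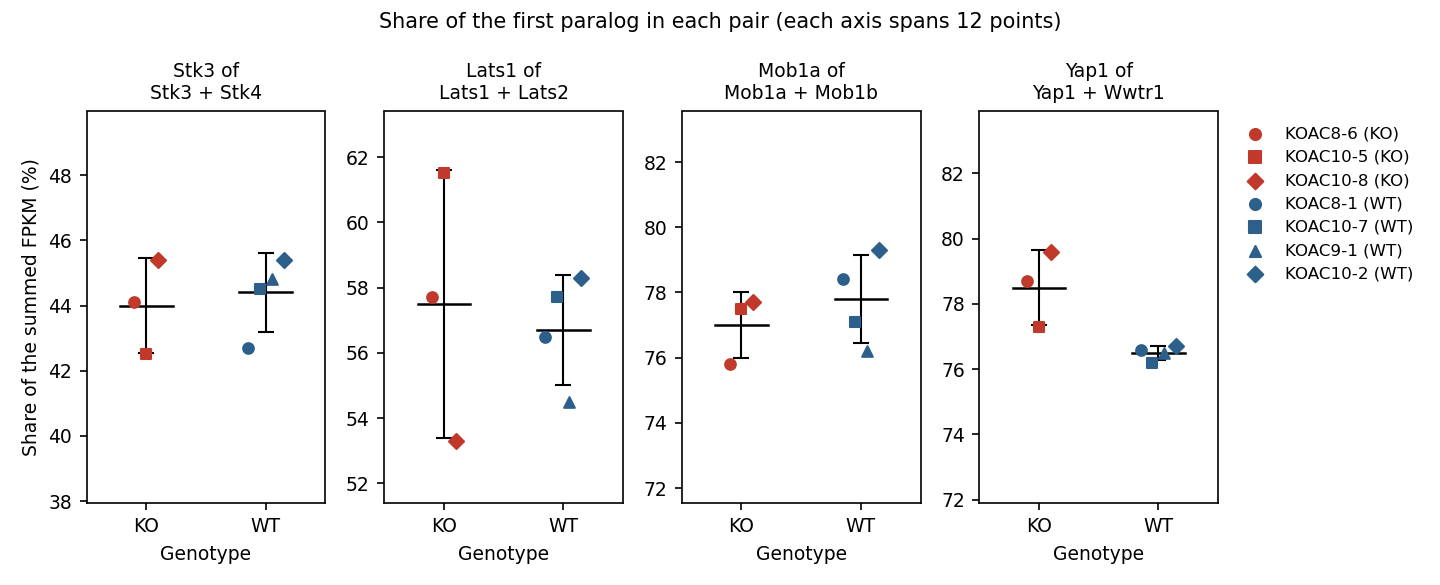
Share of the first gene in the summed FPKM of each paralog pair, in percent, per embryo (KO red, WT blue; bars are means, error bars the SD, and each axis spans 12 points). Of the 4 pairs, only in that of Yap1 and Wwtr1 do the points of the KO embryos (77.3% to 79.6%) lie apart from those of the WT embryos (76.2% to 76.7%).

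Some embryos held the highest or lowest value of several of the genes. How often each embryo did so over all genes tested was not computed. The relative depth of the 3 embryos named next was 1.13 (KOAC8-6), 1.06 (KOAC10-5) and 0.81 (KOAC10-2), and its part was not tested. KOAC8-6 (KO) had the highest value of 5 of the 10 genes (Stk4, Lats1, Sav1, Mob1b and Yap1) and lay above the mean for 9. KOAC10-5, also KO, had the lowest of 3 (Stk3, Lats2 and Mob1a) and lay above the mean for 1. The WT embryo KOAC10-2 had the lowest of 3 (Stk4, Mob1b and Yap1) and lay above the mean for 0 of 10. The largest deviation of any embryo from a gene's mean was 0.18 on the log2 scale, for Lats2 in KOAC10-5.

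**Figure D4:**
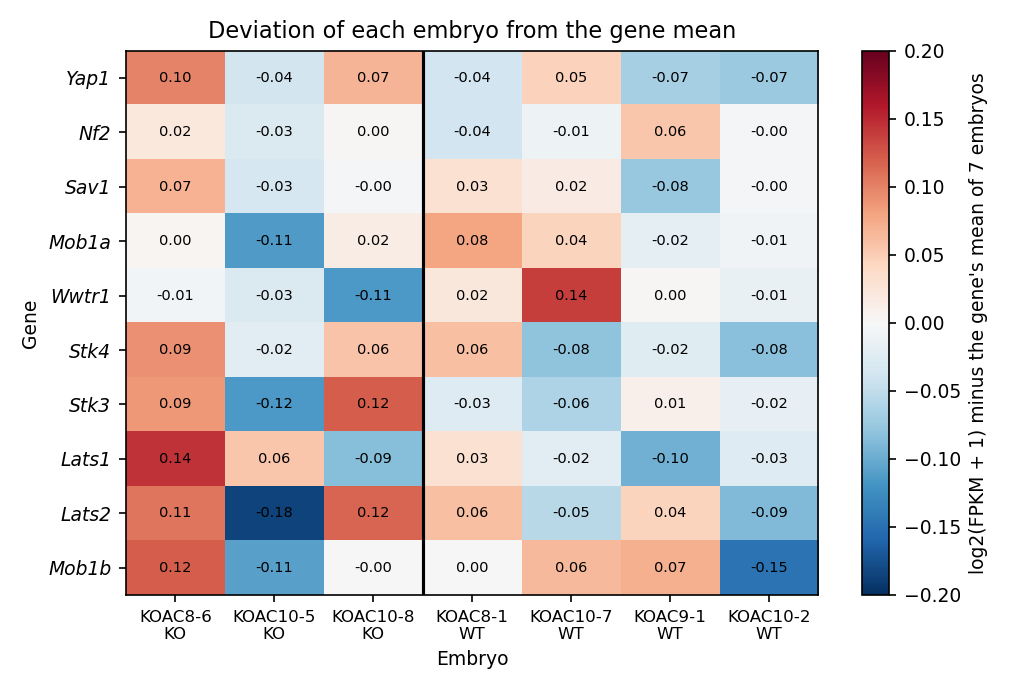
Deviation of each embryo's log2(FPKM + 1) from the mean of the 7 embryos, by gene and embryo, with KO embryos left of the line (red above the mean, blue below). The column of KOAC8-6 is above the mean for 9 of 10 genes and that of KOAC10-2 for 0, and the largest deviation is 0.18.

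For each of the 10 genes the gene with the most similar course over the 7 embryos was taken, by Pearson's r of log2(FPKM + 1). The choice was among those of the 16094 other genes tested that have a symbol. It is a description of 7 points that share library and depth. These were Ccdc97 for Stk3, Cdc40 for Stk4, Gm31763 for Lats1, Ikzf1 for Lats2, Gm42553 for Sav1, Sec11a for Mob1a, Ube4a for Mob1b, Ap1ar for Nf2, Adam17 for Yap1 and Brox for Wwtr1. No gene of the 10 was the nearest to another. The r values lay between 0.95 and 0.99, each being the highest of the genes compared, and without the 2 farthest embryos they fell to 0.68 for Sec11a and 0.53 for Brox. Ikzf1, which encodes a transcription factor of blood cells, had a mean of 7.42 FPKM. It put the embryos in the same order as Lats2, as Ccdc97 did for Stk3. Both genes were picked for their likeness, and a link to either was not tested.

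The promoters of the 10 genes were searched for the element of the TEAD factors, GGAATG or CATTCC on the other strand, in the 250 bases before each RefSeq start (GRCm38.p6). The set of RefSeq promoters used here held 12 entries for 9 of the genes and none for Stk3. The element was found in 5 of 12 entries, those of Wwtr1 (both starts, the same element), Yap1, Sav1 and Mob1a, beside 12.6% of 32851 promoters searched in the same way. The stretches of 30 bases around it are shown because 2 of the 4 genes encode the partners of TEAD. The element is in capitals, each is read 5′ to 3′ along the gene's strand, and positions are in GRCm38.p6.
Yap1, chr9:8004720-8004749, minus strand, element 141 bases upstream: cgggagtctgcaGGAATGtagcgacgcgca
Wwtr1, chr3:57576029-57576058, minus strand, 136 and 170 bases upstream of its 2 starts: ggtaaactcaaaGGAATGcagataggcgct
Sav1, chr12:69987091-69987120, minus strand, 106 bases upstream: cggctttcccagCATTCCcagcggcgcggg
Mob1a, chr6:83325818-83325847, plus strand, 209 bases upstream: tggccagaatagCATTCCtttaggagaaga
The log2 fold changes of these 4 genes, given above, were 0.077 for Yap1, -0.086 for Wwtr1, 0.019 for Sav1 and -0.056 for Mob1a, so that genes with the element lay on both sides of 0. A match of these letters is no evidence of binding.

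Around the core, 83 other genes of the pathway were followed in 7 lists by role, and 79 of them passed the filter (Rassf6, Strip2, Vgll1 and Nt5e did not). None of the 79 (0) reached an adjusted p under 0.05. An unadjusted p under 0.05 was reached by 7, which is 8.86% beside 11.5% of all genes tested. The median log2 fold change was -0.0031, and the groups were apart for 10 of the 79, beside 11.6% of all genes tested. The genes with the low p were Amot, Tnik and Rassf2 among kinase activators and scaffolds, Vgll2 and Vgll3 among the TEAD partners, and Nuak2 and Tgfb2 among YAP and TAZ targets. Of the genes of STRIPAK (15 tested), the LIM-domain inhibitors of LATS (3), the NDR kinases (2) and the genes of YAP/TAZ retention and turnover (10), 0 had an unadjusted p under 0.05.

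Amot encodes angiomotin, which binds YAP and activates LATS. It was at 34.1, 34.3 and 27.9 FPKM in KO and 40.7, 43.9, 40 and 37.0 FPKM in WT embryos, lower in each KO embryo than in any WT embryo (log2 fold change -0.33, SE 0.091, adjusted p = 0.312 by limma). Tnik, a MAP4K-family kinase gene that acts beside MST, had means of 10.3 ± 1.25 (SD, n = 3) and 12.5 ± 0.484 FPKM (SD, n = 4; log2 fold change -0.27). Rassf2, whose product binds the MST kinases, ran from 11.1 to 11.96 FPKM in KO and from 9.64 to 10.9 FPKM in WT embryos (log2 fold change 0.16). In both the groups were apart, with adjusted p-values of 0.348 and 0.403 by limma. At the upper end of the same list Wwc1, which encodes KIBRA, had a log2 fold change of 0.17 with groups that overlapped.

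In the STRIPAK list the log2 fold changes ran from -0.13 for Stk26, a kinase gene of the complex, to 0.16 for Strn, which encodes its scaffold striatin. The groups overlapped for both, and 11 of 15 values were above 0. Of the LIM-domain inhibitors, Ajuba was at 0.17 and Limd1 at -0.048. Of the NDR kinases, relatives of LATS, Stk38 was at 0.092 and Stk38l at -0.039. Among genes of YAP/TAZ retention and turnover, Fbxw11, a ubiquitin ligase subunit gene, was at 0.14 and Ywhah, a 14-3-3 gene, at -0.088. All of these had groups that overlapped.

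Vgll2 and Vgll3 encode cofactors that compete with YAP for TEAD. Vgll2 was at 3.29, 3.86 and 2.87 FPKM in KO and 4.72, 4.8, 6.74 and 4.48 FPKM in WT embryos (log2 fold change -0.50, SE 0.14, adjusted p = 0.318 by limma). Vgll3 was at 3.44, 3.16 and 2.13 FPKM in KO and 4.32, 4.86, 6.61 and 3.92 FPKM in WT embryos (log2 fold change -0.60, SE 0.18, adjusted p = 0.347 by limma). For both, the highest KO value was below the lowest WT value, and the highest of all was in KOAC9-1, which also had the highest skeletal muscle sum, 369 FPKM, while KOAC10-8 had the lowest values of both and the lowest sum, 142 FPKM. Vgll2 is known from developing skeletal muscle, and the part of muscle content in its value was not tested. Vgll4 of the same list was at 0.13, with groups that overlapped.

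Of the 20 tested targets 13 were below 0 and 7 above. Nuak2, which encodes a kinase, was at 11.4, 13.3 and 13.7 FPKM in KO and 9.14, 10.1, 9.02 and 11.1 FPKM in WT embryos (log2 fold change 0.35, SE 0.094, adjusted p = 0.307 by limma). Tgfb2, which encodes a secreted growth factor, was at 15.6, 19.0 and 14.3 FPKM in KO and 19.9, 23.2, 22.3 and 20.2 FPKM in WT embryos (log2 fold change -0.38, SE 0.10, adjusted p = 0.312 by limma). These were the highest and the lowest of the list, and the groups were apart for both.

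**Figure D5:**
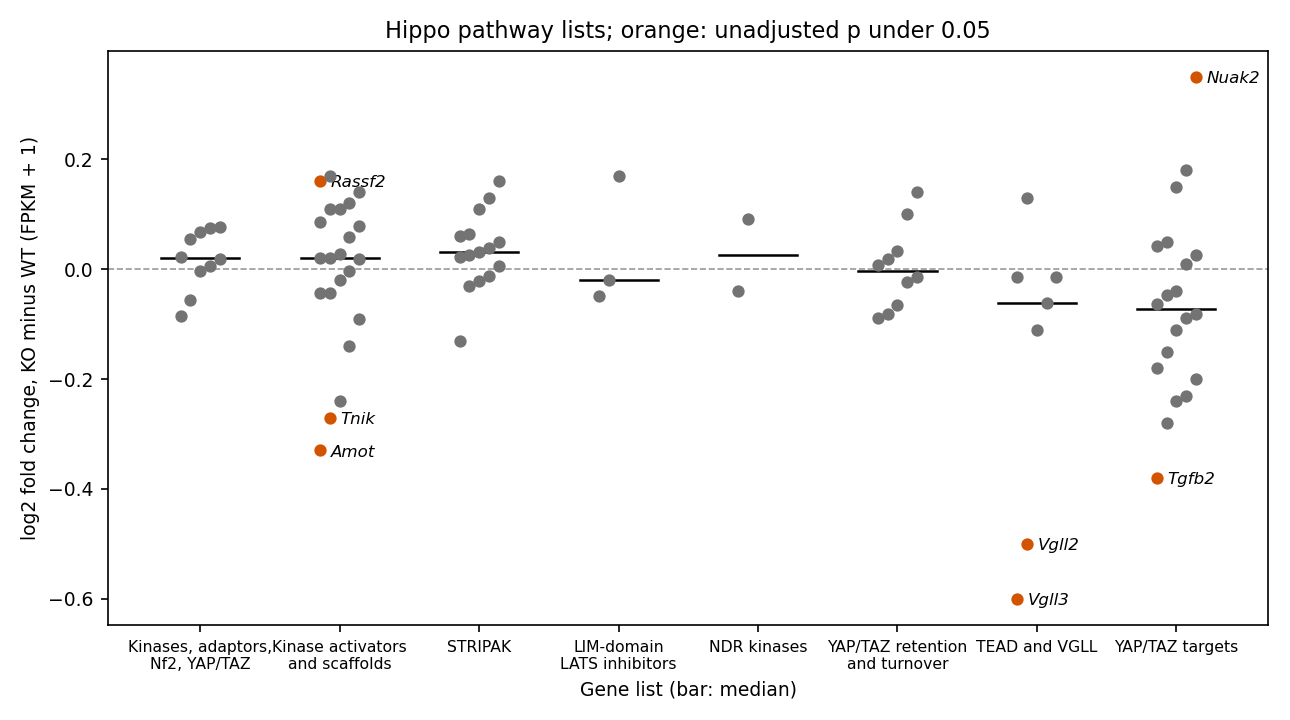
Log2 fold change, KO minus WT, for each tested gene of the core (left) and of the 7 role lists, with the median of each list as a bar and genes with an unadjusted p under 0.05 in orange. The 10 genes of the core lie between -0.086 and 0.077, and the 79 of the lists between -0.60 (Vgll3) and 0.35 (Nuak2). More genes give a wider range. The median absolute log2 fold change was 0.055 for the core and ran from 0.0376 (STRIPAK) to 0.125 (targets) in the lists.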

How the data were processed

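RNA-seq of 7 single E11.5 embryos (TruSeq RNA v2) was used, and genotypes were taken from the labels. The authors deposited 1 FPKM value per gene and embryo, with 0 FPKM columns that matched no embryo. The submitters' notes name Salmon, DESeq2, MultiQC and GRCm38, while versions and annotation are not given in the sources used here. The columns of the authors' own comparison (mean level, fold change, its error and p-values) were not used. FPKM were transformed to log2(FPKM + 1), genes averaging 1 FPKM or more were kept, and KO and WT embryos were compared without a covariate with limma 3.58.1 in R 4.3.3 (lmFit, eBayes with a trend), two-sided, with p-values adjusted by Benjamini and Hochberg's method across the genes tested and a threshold of 0.05. The steps were tested on simulated data. Tables and figures were made with pandas 2.3.3, numpy 2.4.6 and matplotlib 3.10.9.

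The 10 genes and the lists were chosen with earlier results of these data known. The genes named are the 10 genes, Slmap, in each list the tested genes with the largest and smallest log2 fold change and those with an unadjusted p under 0.05, genes that share at least 10% of 50-base stretches with one of the 10, the gene most like each of the 10 (genes without a symbol left out), and Afp. The promoter search and Atl1 were added after the values had been seen. Positions came from GENCODE M21 (GRCm38), which holds all 10 genes and all but 14 of the identifiers, and promoters from RefSeq (GRCm38.p6). Other settings tried were pseudocounts of 0.1 and 0.01, no filter, a minimum mean of 5 FPKM, 3 other scalings, the series number as a block, Afp as a covariate, robust eBayes, embryo weights, and leaving out each embryo.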

Additional observations from a re-analysis of the deposited data

Results flagged for a closer look

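Of 32 sets of WT values examined for an embryo far from the rest, 1 was marked, where chance marks about 1 in 20. Vgll2 in the WT embryo KOAC9-1 (6.74 FPKM) lay above the other 3 WT embryos (4.48 to 4.8 FPKM) by 0.86 of the range of the group, beyond Dixon's critical value of 0.829 for 4 values. The groups were apart for Vgll2 with all embryos, so leaving out this highest WT value could not make them overlap.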

How the results depend on the processing

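Under all 18 alternatives 0 of the 10 genes and 0 of the other pathway genes were called, and the lowest adjusted p of any of the 10 was 0.325 (limma). Slmap, the targeted gene, was not called under any of them either (adjusted p 0.0905 to 0.552 by limma). The count of 0 is therefore a weak statement about the 10 genes. Of 180 log2 fold changes of the 10 genes under these alternatives 165 kept their sign, and 6 genes kept it under all. Lats2 was at -0.017 with Afp as a covariate and at -0.029 to 0.12 when 1 embryo was left out (-0.024 without KO replicate 1, -0.029 without KO replicate 3 and -0.0036 without WT replicate 4). Sav1 was at -0.0036 with the series block and between -0.011 (without KO replicate 1) and 0.041 (-0.0036 without WT replicate 3). Mob1b was at -0.0041 after rescaling to a common sum, -0.015 with the Afp covariate and between -0.052 (without KO replicate 1) and 0.063 (-0.042 without WT replicate 4). Nf2 was at 0.015 with the series block, 0.0079 with embryo weights and between -0.016 and 0.015 (0.011 without KO replicate 2, 0.015 without WT replicate 3). Outside the core Stk38l was at 0.0069 with embryo weights. The cause was not tested, and the values of the 10 genes lie within their intervals given above. The median of the 10 genes ranged from -0.012 (without KO replicate 1, KOAC8-6) to 0.06. The number of the 10 genes with groups apart, 0 of 10, was 1 after quantile normalization (Wwtr1; 11.8% of all genes) and 0 to 3 when 1 embryo was left out. It was 3 without KO replicate 2, KOAC10-5 (Stk3, Lats2 and Yap1; 28.4% of all genes), and 1 without KOAC8-6 (Wwtr1; 18.4%), KOAC8-1 (Stk4; 18.1%), KOAC10-7 (Yap1; 16%), KOAC10-8 (Lats1; 17.9%) or KOAC10-2 (Wwtr1; 16.6%). Pseudocounts, filters and eBayes settings leave the order of FPKM as it is and gave no such count, nor did covariates and weights. With 1 embryo left out, the share difference of Yap1 was 1.48 to 2.63 points. It could not fall to 0, since the groups were apart. The differences of Stk3 (-1.04 to 0.41) and Lats1 (-1.23 to 2.88) crossed 0, and that of Mob1a ran from -1.28 to -0.19 points. The labels give no replicate numbers, but KO and WT embryos share the series numbers KOAC8 and KOAC10, and a block on these called 0 of the 10 genes, with the same estimates as leaving out KOAC9-1, the only embryo of its series. With 3 and 4 embryos and unknown read numbers, differences within the intervals given could not be detected.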
